A study of Drosophila melanogaster with 54 samples.

Results

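RNA-seq libraries from whole male fruit flies were compared, 6 in all: 3 from a strain carrying 1 copy of NLS-FLucDM-GFP and 3 from a strain carrying 1 copy of Cyto-FLucDM-GFP, all reared at 29 °C and 10 days old. They were chosen by their labels from 54 libraries, and every gene of the expression table was used, 13926 in all, of which 12555 passed a filter on low values. FLucDM is a firefly luciferase mutated so that it folds poorly, here fused to green fluorescent protein (GFP). The NLS form is directed mainly to the nucleus and the Cyto form mainly to the cytoplasm. The matched w1118 flies at 29 °C, an isogenic stock without the luciferase, and the same strains at 25 °C and 18 °C, each as 3 libraries, serve as reference values. The filter and the estimate of spread used all 54 libraries. These also include strains with 2 copies of NLS-FLucDM-GFP and with 1 or 2 copies of Mito-FLucDM-GFP, at 29 °C, 25 °C and 18 °C. All flies were 10 days old. The promoter that drives the luciferase and its site of insertion are not stated in the labels. In the comparison made here each form of the protein stands in 1 strain, so the place to which the protein goes and any other difference between the strains cannot be told apart.

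Cells meet misfolded protein with chaperones, which help it fold or hold it in solution, and with the proteasome and autophagy, which degrade it. The cytosol and the nucleus share many of these factors, and proteasomes work in both. In flies, the fat body, a tissue that serves as liver and fat store, also secretes antimicrobial peptides when bacterial cell wall is sensed through the Imd pathway, and it exports storage and yolk proteins into the blood.

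Values are TPM, a measure of transcript abundance scaled to the same total in every library, and differences are NLS minus Cyto in log2(TPM + 1), with a standard error (SE) and a Benjamini-Hochberg adjusted p from limma over all genes tested. A gene is called when that p is below 0.05. Between libraries of 1 strain at 29 °C, Pearson's r over genes ran from 0.994 to 0.996, and between the strains from 0.988 to 0.991. From 12079 to 12158 genes reached 1 TPM in each library, and 10 genes held 11.8% to 13.9% of the total. The table has no entry named for luciferase or GFP, so the level of the expressed protein's transcript was not analysed here. The eye colour gene w, which is mutated in w1118, read 6.69, 7.53 and 6.54 TPM in NLS and 7.66, 7.38 and 9.26 TPM in Cyto, against 3.70 to 4.39 TPM in w1118; the libraries of the strains overlapped and the gene did not pass (-0.20, SE 0.15, adjusted p = 0.399).

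At 29 °C, 1679 of 12555 genes (13.4%) were called between the strains, 501 higher in NLS (3.99%) and 1178 lower (9.38%). Most differences were small: the median called rise was 0.36 and the median called fall was -0.28, while 43 genes were at least 2-fold higher and 34 at least 2-fold lower. At 4-fold or more, 14 genes were higher and 6 lower. The split between the directions depends on the scaling between libraries. It was 710 higher and 766 lower after quantile normalization, and 887 higher and 501 lower with median-ratio size factors, which moved the median of all genes from -0.06 to -0.01 and 0.01. Single libraries also moved the count, from 680 without NLS replicate 3 and 761 without Cyto replicate 3 to 2375 without NLS replicate 2. Over all genes, leaving out NLS replicate 1, 2 or 3 gave 393, 516 and 275 higher and 628, 1859 and 405 lower. Leaving out Cyto replicate 1, 2 or 3 gave 542, 333 and 285 higher and 1497, 791 and 476 lower. The 6 libraries fitted alone gave 223 higher and 215 lower, and the 18 libraries of the NLS and Cyto strains 440 and 896. List counts under the alternatives, given below, are to be read beside these counts, which moved too.

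Among called genes with a name other than a CG number, the 6 largest rises in NLS were in immune genes, mostly antimicrobial peptides that the Imd pathway induces. Of 17 tested peptide genes, 6 were higher (35.3%, against 3.99% of all genes) and 2 were lower (11.8%, against 9.38%), with a median difference of 2.10 beside -0.06 over all genes. DptA, a diptericin active against Gram-negative bacteria, read 563, 557 and 356 TPM in the NLS libraries and 44.3, 13.6 and 16.6 TPM in the Cyto libraries. Its neighbour on chromosome arm 2R, DptB, another diptericin, read 349, 253 and 212 TPM in NLS and 23.7, 11.1 and 15.7 TPM in Cyto. For both genes the lowest NLS library was several times above the highest Cyto library, and the 3 w1118 libraries lay between, at 54.6, 58.7 and 127 TPM for DptA and 50.7, 59.4 and 192 TPM for DptB. The difference was 4.41 (SE 1.49, adjusted p = 0.0422) for DptA and 3.96 (SE 1.22, adjusted p = 0.0256) for DptB. Both SEs are large because these genes also vary between libraries of other groups: DptA ran from 6.02 to 264 TPM among the Cyto libraries at 18 °C.

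Def, the fly defensin, read 59.3, 78.8 and 80.1 TPM in NLS and 13.2, 11.1 and 6.62 TPM in Cyto. That is a difference of 2.74 (SE 0.67, adjusted p = 0.00515), with w1118 between at 21.2 to 23.2 TPM. edin, an immune-induced secreted peptide outside the list, read 23.8, 17.0 and 18.0 TPM in NLS and 0.578, 0.191 and 0 TPM in Cyto. The w1118 libraries were as low as the Cyto ones, at 0 to 0.184 TPM, so for edin the NLS libraries alone stood high (4.05, SE 0.96, adjusted p = 0.00408). AttD, an attacin, read 22.8, 17.6 and 28.2 TPM in NLS and 3.39, 5.09 and 1.62 TPM in Cyto (2.51, SE 0.70, adjusted p = 0.0136). Here w1118, at 24.4 to 30.6 TPM, was near NLS, and the Cyto libraries were the low ones. The cecropins CecA2 (2.10, SE 0.72, adjusted p = 0.0458) and CecA1 (0.91, SE 0.27, adjusted p = 0.0222) were arranged in the same way, with 138 to 181 TPM of CecA1 in w1118, 150 to 249 in NLS and 88.8 to 105 in Cyto.

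Of the peptide genes that did not pass, AttA, AttB, AttC, Dro, Mtk and CecC also had every NLS library above every Cyto library. AttC, an attacin, read 76.1, 29.0 and 41.1 TPM in NLS and 6.31, 6.52 and 5.43 TPM in Cyto, and its adjusted p was 0.124 (2.70, SE 1.19). Over the whole list, 13 of 17 genes had NLS libraries wholly above the Cyto libraries, against 7.88% of all genes, and 2 had them wholly below, against 17.1%. The estimate of spread is shared with 48 other libraries; fitted on the 6 libraries alone, 12 peptide genes were higher and 2 lower, while leaving out any 1 library in the main design left 1 to 5 higher. Without NLS replicate 3, 1 peptide gene remained called as higher. Def and edin kept their call in all 14 alternatives run, DptB in 10 and DptA in 8. Pairs such as AttA and AttB, or CecA1 and CecA2, are near-identical copies, so the split of reads within a pair is uncertain.

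Drosomycin and its relatives did not share the direction. Drs, the antifungal drosomycin induced through the Toll pathway, read 164, 175 and 269 TPM in NLS and 205.3, 185 and 211 TPM in Cyto (-0.02, SE 0.43, adjusted p = 0.984), with the groups overlapping. Drsl4, a drosomycin-like gene, was lower in NLS at 276, 154 and 201 TPM, against 366, 453 and 473 TPM in Cyto and 688 to 866 TPM in w1118 (-1.06, SE 0.24, adjusted p = 0.00195). Drsl5, of the same family, was lower by a smaller amount (-0.35, SE 0.10, adjusted p = 0.0131). A separate list of 16 immune-induced peptide genes did not rise either, with 0 called in limma and a median of -0.23. In that list 8 genes had NLS wholly below Cyto (against 17.1% of all genes) and 1 wholly above (against 7.88%). Fitted on the 18 libraries of the NLS and Cyto strains, 4 were lower and 1 higher. Of 12 tested peptidoglycan recognition proteins, the sensors and scavengers of bacterial cell wall, 1 was called lower (8.33%, against 9.38% of all genes). It was PGRP-LD (-0.54, SE 0.13, adjusted p = 0.00534), while 10 of the 12 had a positive difference.

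**Figure D1:**
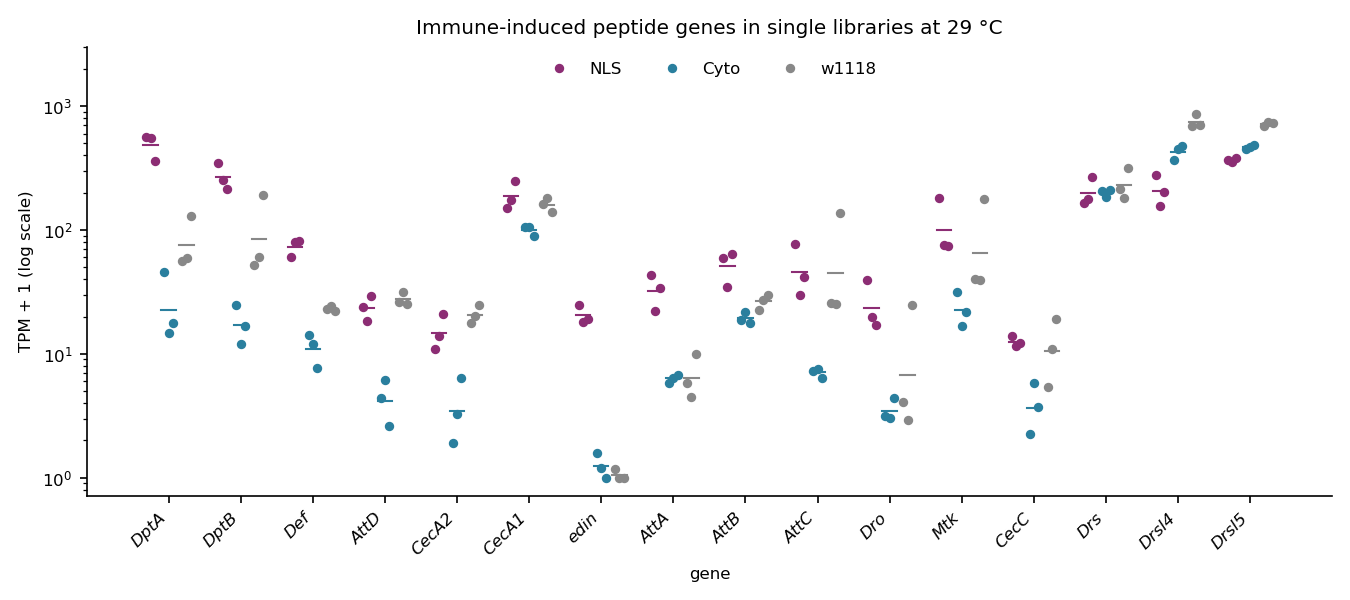
TPM + 1 on a log scale for 16 immune-induced peptide genes at 29 °C, with 1 point per library and a short line at each group's mean of the log values, for NLS, Cyto and w1118 (3 libraries each). DptA reads 356 to 563 TPM in NLS and 13.6 to 44.3 TPM in Cyto, while Drs overlaps between the groups.

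Digestive genes went both ways. The lysozymes LysD and LysB, gut enzymes that degrade bacterial cell wall, were lower in NLS, and LysE was higher. LysD read 770, 959 and 554 TPM in NLS, 1968, 1474 and 1431 TPM in Cyto, and 3123 to 3936 TPM in w1118 (-1.11, SE 0.35, adjusted p = 0.0309). LysE read 98.2, 96.1 and 132 TPM in NLS and 47.7, 39.1 and 51.6 TPM in Cyto (1.21, SE 0.16, adjusted p = 9.09e-07). These genes lie next to each other on 3L and are nearly identical, so reads may be split between them in an uncertain way. With 1 library left out, LysD and LysB each kept the call in 1 of 6 limma fits and LysE in all 6. The largest adjusted p of LysD was 0.186, without NLS replicate 3. Of 32 digestive proteases, 5 were higher (15.6%, against 3.99%) and 4 lower (12.5%, against 9.38%), and leaving out 1 library gave 3 to 8 higher and 2 to 5 lower. Among them were Jon74E (0.98, SE 0.15, adjusted p = 8.48e-06), Ser6 (0.61, SE 0.09, adjusted p = 4.15e-06) and Jon25Biii (-0.65, SE 0.13, adjusted p = 0.000862), all serine proteases of the gut.

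Storage and yolk genes of the fat body were lower in NLS. Of 9 tested genes of storage, yolk and lipid transport, 7 were lower (77.8%, against 9.38% of all genes), with a median of -1.34. Lsp1beta, a larval serum protein stored as an amino acid reserve, read 113, 105 and 112 TPM in NLS and 353, 253 and 243 TPM in Cyto. The difference was -1.34 (SE 0.24, adjusted p = 0.000162), and w1118 was below both at 28.1 to 56.7 TPM. Its partner subunit Lsp1alpha (-1.45, SE 0.27, adjusted p = 0.000254) and the related Lsp2 (-1.40, SE 0.43, adjusted p = 0.0249) had the same order of groups. The lipoprotein apolpp, the main carrier of blood lipids, did not pass at 316, 310 and 283 TPM in NLS and 341, 306 and 292 TPM in Cyto (-0.04, SE 0.07, adjusted p = 0.707). In whole flies, fewer cells of a type and less RNA per cell cannot be told apart.

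The yolk protein genes, which females express strongly and males at low levels, were among the largest falls. Yp1 read 0.991, 0.247 and 0.235 TPM in NLS and 15.9, 7.28 and 4.72 TPM in Cyto (-2.68, SE 0.24, adjusted p = 7.89e-11), with w1118 at 0.766 to 1.11 TPM. Yp2 read 0.470, 0.147 and 0.749 TPM in NLS and 18.5, 2.53 and 3.46 TPM in Cyto (-2.23, SE 0.30, adjusted p = 8.64e-07). For both genes the Cyto libraries were the high ones, and Cyto replicate 1 was the highest. That library also listed the vitelline membrane genes of the female eggshell, Vm26Aa, Vm26Ab and Vm34Ca, at 1.2, 2.68 and 2.48 TPM, whereas the other 5 libraries of the comparison had at most 0.252 TPM of any of them; its part in the results was not tested beyond leaving it out. Without Cyto replicate 1 the differences were -2.24 for Yp1 and -1.47 for Yp2 and both passed, while Yp3 (adjusted p = 0.310), Lsp2 (adjusted p = 0.0878) and the ribosomal protein paralogue RpS5b (adjusted p = 0.0540) no longer did, and the list count fell to 5 of 9. Yp1 and Yp2 are close copies of each other.

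The male reproductive secretions were higher in NLS. Of 59 accessory gland and seminal fluid genes, 21 were higher (35.6%, against 3.99%) and 38 did not pass, with a median of 0.21. Acp76A, an accessory gland protease inhibitor of the serpin family, read 54, 60.5 and 62.9 TPM in NLS and 31.4, 32.2 and 31.5 TPM in Cyto. It differed by 0.88 (SE 0.17, adjusted p = 0.000316), and w1118 lay between the strains at 34.3 to 48.9 TPM. Acp54A1 (0.83, SE 0.19, adjusted p = 0.00238), Acp26Aa or ovulin, which stimulates egg release in the mated female (0.59, SE 0.11, adjusted p = 0.000295), Sfp24Bd (0.51, SE 0.10, adjusted p = 0.000485) and Sfp93F (0.47, SE 0.08, adjusted p = 3.68e-05) did the same. The summed level of the list was 24535 to 29252 TPM in NLS, 21168 to 22523 TPM in Cyto and 21256 to 24379 TPM in w1118, so the NLS and Cyto libraries did not overlap. scpr-B, a secreted cysteine-rich protein gene outside the list, read 151, 188 and 150 TPM in NLS, 39.8, 57.7 and 67.3 TPM in Cyto and 29.1 to 33.5 TPM in w1118 (1.58, SE 0.19, adjusted p = 1.12e-07). The list count was 21 under quantile normalization, 26 with median-ratio factors, 9 with 6 libraries fitted alone, 7 without NLS replicate 3, 10 without Cyto replicate 3 and 14 without Cyto replicate 1. Over all genes the higher count in these fits was 710, 887, 223, 275, 285 and 542, in the same order, against 501 in the main fit.

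Of 30 testis and sperm genes, 6 were lower (20.0%, against 9.38%) and 24 did not pass, with a median of -0.18. Mst98Ca, a sperm tail component, read 582, 667 and 527 TPM in NLS and 656, 820 and 884 TPM in Cyto (-0.41, SE 0.09, adjusted p = 0.00192), the highest NLS library being above the lowest Cyto one. The sperm leucyl aminopeptidase S-Lap7 was lower by a similar margin (-0.29, SE 0.08, adjusted p = 0.0139). In this list 1 gene had its NLS libraries wholly below the Cyto libraries, against 17.1% of all genes. The count called was 1 without NLS replicate 3, 1 without Cyto replicate 2, 1 without Cyto replicate 3, 2 without NLS replicate 1, 16 without NLS replicate 2 and 23 without Cyto replicate 1. It was 2 with median-ratio factors, 4 after quantile normalization, and 0 in limma with the 6 libraries fitted alone, where 6 had an unadjusted p under 0.05. In w1118 the list summed to 22587 to 25147 TPM, above both NLS (14365 to 16541 TPM) and Cyto (14686 to 18866 TPM), whose ranges overlapped.

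**Figure D2:**
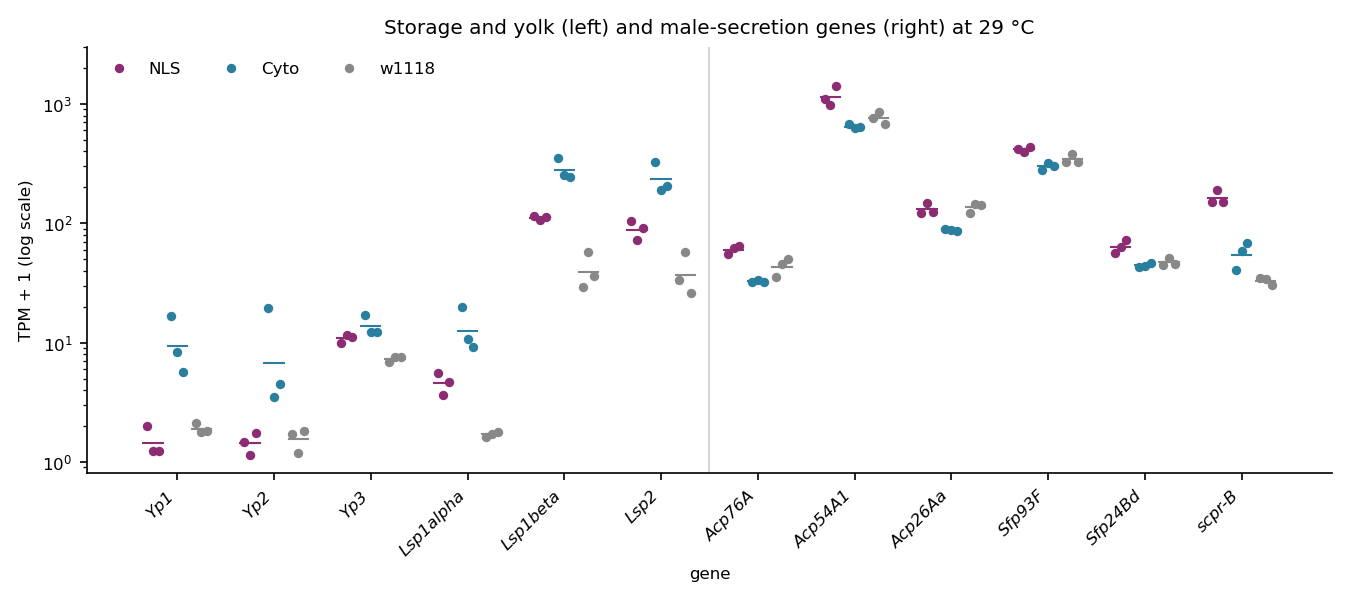
TPM + 1 on a log scale for 6 storage and yolk genes (left) and 6 male-secretion genes (right) at 29 °C, with 1 point per library and a short line at each group's mean of the log values. The Cyto libraries are above the NLS libraries for all 6 genes on the left and below them for all 6 on the right, and Yp2 in Cyto replicate 1 (18.5 TPM) stands above the other Cyto libraries.

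Markers of haemocytes, the blood cells of the fly, were lower in NLS. Of 10 genes, 5 were lower (50%, against 9.38%), with a median of -0.32. They were the phagocytic receptor gene eater (-0.49, SE 0.12, adjusted p = 0.00393), the clotting factor gene Hml (-0.44, SE 0.12, adjusted p = 0.00841), the prophenoloxidases PPO1 and PPO2, which make melanin in crystal cells, and the matrix peroxidase gene Pxn (-0.30, SE 0.09, adjusted p = 0.0286). Hml read 11.5, 11.1 and 9.48 TPM in NLS and 13.2, 15.5 and 16 TPM in Cyto. PPO2 read 11.1, 10.6 and 10.6 TPM in NLS and 14.3, 14.8 and 17.5 TPM in Cyto. Both had every NLS library below every Cyto library, but w1118 was above Cyto for Hml (16 to 19.1 TPM) and below NLS for PPO2 (7.90 to 8.49 TPM). The count was 1 without NLS replicate 3, 1 without Cyto replicate 3 and 2 with the 6 libraries fitted alone.

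The genes that handle misfolded protein differed by less than 1 in log2(TPM + 1) where called. Of 16 inducible heat-shock genes, 1 was higher (6.25%, against 3.99%) and 3 were lower (18.8%, against 9.38%), and the count of lower genes was 1 without NLS replicate 1, 1 without Cyto replicate 3 and 1 under either scaling. Hsp26, a small heat-shock protein, read 171, 171 and 187 TPM in NLS and 153, 140 and 143 TPM in Cyto (0.27, SE 0.08, adjusted p = 0.0159). Hsp70Bb, a copy of the major inducible Hsp70, read 7.03, 7.48 and 8.0 TPM in NLS and 11, 11 and 11.5 TPM in Cyto (-0.52, SE 0.17, adjusted p = 0.0325). The Hsp26 libraries of NLS were all above those of Cyto and the Hsp70Bb libraries all below, though Hsp70 copies share most of their sequence and their split is uncertain. Hsp70Ba, another copy, was near the detection floor at 0.0982 to 0.554 TPM in NLS and 0.628 to 1.56 TPM in Cyto (-0.75, SE 0.18, adjusted p = 0.00475). Its difference depended on the pseudocount and was -1.91 with 0.1 TPM added in place of 1 (limma adjusted p = 0.00974). Hsp22, the mitochondrial small heat-shock protein, was high in both strains, at 591, 638 and 383 TPM in NLS and 887, 432 and 759 TPM in Cyto against 73.2 to 81.7 TPM in w1118, and did not differ detectably between them (-0.34, SE 0.24, adjusted p = 0.360).

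Of 27 constitutive cytosolic chaperones and cochaperones, 2 were higher (7.41%, against 3.99%) and 1 was lower (3.7%, against 9.38%). HIP, a cochaperone that stabilises Hsp70 in its client-bound state, read 55.9, 57.4 and 55.4 TPM in NLS, 43.5, 35.7 and 43.3 TPM in Cyto and 31.5 to 36.3 TPM in w1118. Its NLS libraries stood above all others, by 0.46 over Cyto (SE 0.08, adjusted p = 9.72e-05). Hsc70-1, a constitutive Hsp70 relative, was lower (-0.20, SE 0.05, adjusted p = 0.00278). Of 18 mitochondrial chaperones and proteases 3 were lower (16.7%, against 9.38%), a count that ran in limma from 0 without NLS replicate 3 or Cyto replicate 3 (4 and 2 at an unadjusted p under 0.05) to 8 without NLS replicate 2 or Cyto replicate 1. Of 22 genes of folding and degradation in the endoplasmic reticulum 2 were higher (9.09%, against 3.99%) and 2 lower (9.09%, against 9.38%), including the stress sensor Ire1 (-0.20, SE 0.05, adjusted p = 0.00666) and the degradation channel gene Der-1 (0.14, SE 0.04, adjusted p = 0.0333).

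Proteasome subunit genes were higher in NLS by small amounts. Of 32 subunits, 10 were higher (31.2%, against 3.99%) and 22 did not pass, and the median was 0.08. Prosalpha6, a subunit of the outer ring of the core particle, read 162, 157 and 178 TPM in NLS and 147, 142 and 132 TPM in Cyto, without overlap (0.24, SE 0.05, adjusted p = 0.000524). Prosalpha4 (0.24, SE 0.06, adjusted p = 0.00575), Prosbeta4 (0.20, SE 0.05, adjusted p = 0.0131) and Prosalpha5 (0.16, SE 0.05, adjusted p = 0.0163) were higher too. At 25 °C, 1 subunit was higher (against 4.82% of all genes) and 1 lower (against 11.7%). At 18 °C 3 were lower (against 6.72%) and 29 did not pass. The difference itself between 29 °C and 18 °C passed for 14 of the 32 subunits, against 9.81% of all genes. Over all genes that test fell from 1232 calls to 400 without NLS replicate 3 at 29 °C. The count at 29 °C was 19 with median-ratio factors, 2 without NLS replicate 3, 1 without Cyto replicate 3, 4 without Cyto replicate 2 and 6 with the 18 libraries of the NLS and Cyto strains, and with the 6 libraries fitted alone limma called 0, with 6 higher at an unadjusted p below 0.05. Of 26 autophagy genes 4 were lower (15.4%, against 9.38%), and the count was 0 without NLS replicate 3 in limma (5 at an unadjusted p under 0.05, 4 of them lower), 2 without Cyto replicate 2 or 3, and 1 under either scaling. Of 20 antioxidant genes 6 were lower (30.0%, against 9.38%) and 1 higher (5.0%, against 3.99%), with 3 lower without Cyto replicate 3 and 2 with the 6 libraries alone. Among them were the peroxidases PHGPx (-0.32, SE 0.06, adjusted p = 0.000485) and Prx2540-1 (-0.32, SE 0.08, adjusted p = 0.00481).

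**Figure D3:**
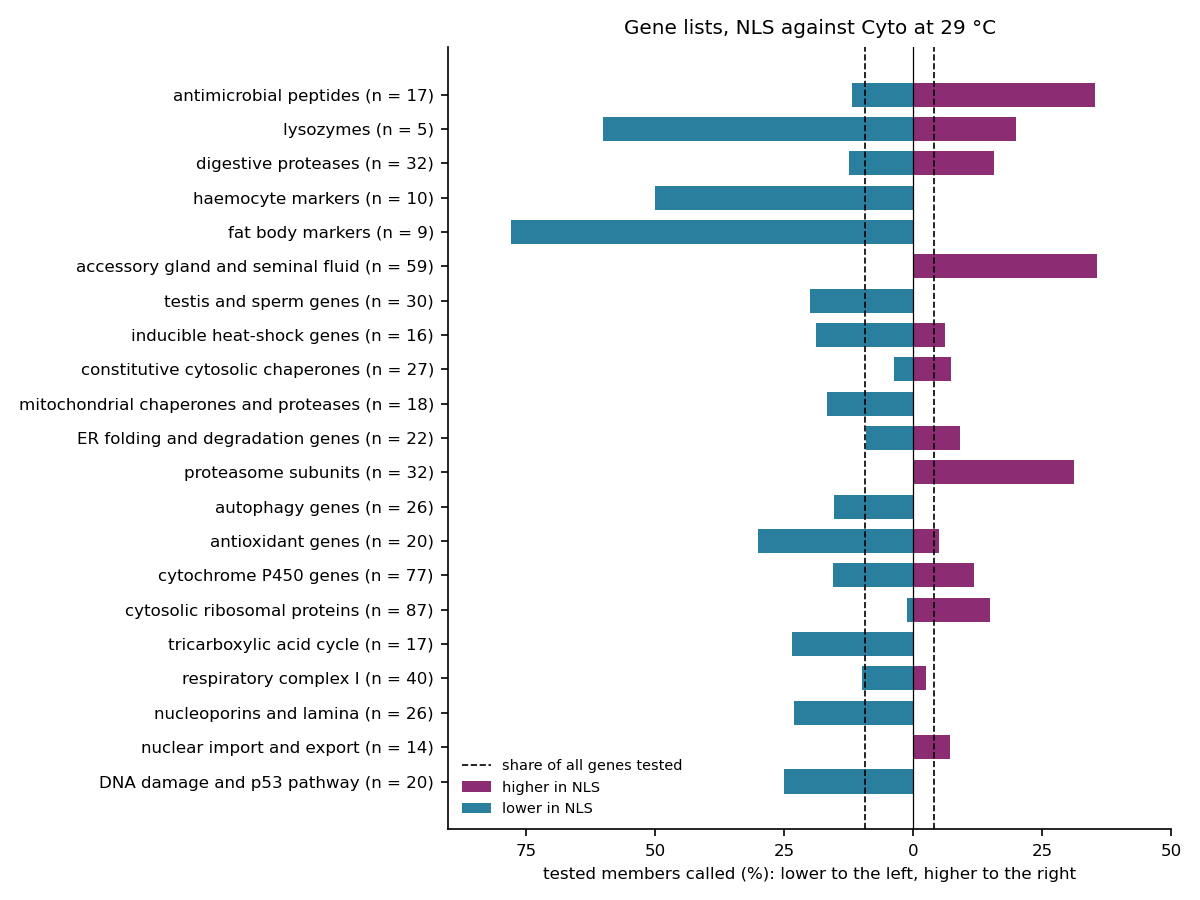
Percent of tested members called higher in NLS (bars to the right) or lower (bars to the left) for 21 gene lists at 29 °C, with dashed lines at the share of all 12555 genes tested (3.99% higher and 9.38% lower). Antimicrobial peptides, seminal fluid genes and proteasome subunits extend to the right, and fat body and haemocyte markers to the left.

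In the lists for the nucleus, where the NLS form is sent, the called genes were lower in NLS except 1 gene of nuclear import and export. List medians ran from -0.15 to -0.0002, beside -0.06 over all genes. With median-ratio factors they ran from -0.08 to 0.07, beside 0.01 over all genes. Of 26 nucleoporins and lamina genes, 6 were lower (23.1%, against 9.38%), with a median of -0.15. Nup54, a channel nucleoporin, read 28.2, 31.4 and 28.6 TPM in NLS and 36.3, 36.6 and 38.2 TPM in Cyto (-0.32, SE 0.06, adjusted p = 0.000142). Its partner Nup58 read 37.7, 43.3 and 36 TPM in NLS and 46, 51.6 and 58.6 TPM in Cyto (-0.41, SE 0.08, adjusted p = 0.000904). Neither gene's NLS and Cyto libraries overlapped. The w1118 libraries were above both strains for Nup54, at 59.9 to 66.8 TPM, and for Nup58, at 57.3 to 65.5 TPM, they were above NLS and overlapped the highest Cyto library. Both scaling alternatives left 3 lower, the 6 libraries fitted alone left 1, and leaving out 1 library gave 3 (without NLS replicate 1, NLS replicate 3 or Cyto replicate 3) to 9 (without NLS replicate 2).

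Of 14 genes of nuclear import and export, 1 was called and higher (7.14%, against 3.99% of all genes). It was Ran, the GTPase that gives transport its direction, at 167, 175 and 172 TPM in NLS and 149, 152 and 156 TPM in Cyto (0.17, SE 0.04, adjusted p = 0.00289). With the 6 libraries fitted alone in limma its adjusted p was 0.160. Of 20 DNA damage and p53 pathway genes 5 were lower (25.0%, against 9.38%), a count that was 1 without NLS replicate 1, 2 without NLS replicate 3, 3 without Cyto replicate 1 or 3, 3 under either scaling and 1 with the 6 libraries alone. The proapoptotic gene hid read 5.49, 6.76 and 5.34 TPM in NLS and 7.79, 8.26 and 9.01 TPM in Cyto (-0.45, SE 0.07, adjusted p = 2.41e-05), with NLS wholly below Cyto. The w1118 libraries, at 6.56 to 7.25 TPM, were below Cyto and overlapped the highest NLS library. Of 18 ubiquitin and SUMO genes 2 were lower (11.1%, near the share of all genes): Npl4, an adaptor that brings ubiquitinated clients to the segregase p97 (-0.33, SE 0.08, adjusted p = 0.00526), and the SUMO protease gene Ulp1 (-0.18, SE 0.06, adjusted p = 0.0331). Of 18 heterochromatin genes 1 was lower, of 25 nucleolar genes 1, and of 20 splicing factors 4, shares of 5.56%, 4.0% and 20.0% against 9.38% of all genes. The splicing count was 2 without NLS replicate 3, Cyto replicate 1 or Cyto replicate 3, and 1 with median-ratio factors.

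Of 17 enzymes of the tricarboxylic acid cycle 4 were lower (23.5%, against 9.38%): Nc73EF, the 2-oxoglutarate dehydrogenase subunit (-0.46, SE 0.07, adjusted p = 1.36e-05), the aconitase gene Acon (-0.24, SE 0.07, adjusted p = 0.0217), and the succinate dehydrogenase subunits SdhA (-0.21, SE 0.05, adjusted p = 0.00550) and SdhB (-0.23, SE 0.07, adjusted p = 0.0332). Nc73EF read 428, 372 and 359 TPM in NLS and 540, 515 and 539 TPM in Cyto, and its NLS libraries overlapped the range of w1118 (364 to 411 TPM), 1 above it, 1 within it and 1 below it. The list count was 1 without Cyto replicate 3, 2 without NLS replicate 3, 1 with median-ratio factors and 1 with the 6 libraries alone. Of 87 cytosolic ribosomal protein genes 13 were higher (14.9%, against 3.99%) and 1 lower (1.15%) at 29 °C. The count of higher genes was 2 without Cyto replicate 2, 4 without Cyto replicate 3 and 25 with median-ratio factors. In limma it was 0 without NLS replicate 3 and with the 6 libraries alone, with 11 higher genes at an unadjusted p under 0.05 in each. At 25 °C 64 were higher (against 4.82% of all genes) and 1 lower (against 11.7%). The difference between the temperatures passed for 0 of the 87 in limma. At an unadjusted p under 0.05 there were 27, all more negative at 29 °C, beside 1239 of all 12555 genes. At the adjusted threshold the temperatures are not shown to differ. Of 40 genes of respiratory complex I, 1 was higher (2.5%) and 4 lower (10.0%), near or below the shares of all genes, and the 13 transcripts of the mitochondrial genome did not pass.

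Cytochrome P450 genes, which oxidise hormones, lipids and foreign compounds, were called in both directions, 9 higher (11.7%, against 3.99%) and 12 lower (15.6%, against 9.38%) of 77. The lower count was 5 without NLS replicate 3, 6 without Cyto replicate 1, 7 without NLS replicate 1, 6 after quantile normalization, and 4 with median-ratio factors or the 6 libraries alone. Cyp4d8 read 30.8, 28.1 and 29.6 TPM in NLS and 19.2, 17.9 and 16.9 TPM in Cyto (0.68, SE 0.07, adjusted p = 7.42e-09). Cyp6a8 read 7.13, 10.2 and 6.72 TPM in NLS and 18.5, 15.5 and 14.3 TPM in Cyto (-0.94, SE 0.15, adjusted p = 2.59e-05), and w1118, at 6.45 to 7.63 TPM, was close to NLS. Cyp6d5 was lower at 226, 260 and 216 TPM against 391, 360 and 342 TPM (-0.64, SE 0.09, adjusted p = 5.51e-06). None of these 3 genes overlapped between the strains. MtnB, a metallothionein that binds copper and cadmium, read 14.6, 8.02 and 11.3 TPM in NLS, 27.5, 37.3 and 36.1 TPM in Cyto and 19.3 to 22.1 TPM in w1118, so the strains lay on opposite sides of w1118 (-1.52, SE 0.26, adjusted p = 6.60e-05).

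Sensory and cuticle genes also held large single differences. Obp99d, an odorant-binding protein, read 6.24, 5.24 and 5.61 TPM in NLS, 1.14, 0.643 and 0.961 TPM in Cyto and 1.08 to 1.40 TPM in w1118 (1.81, SE 0.30, adjusted p = 5.27e-05). Of the rhodopsins of the inner photoreceptors, Rh6 was lower, at 120, 158 and 163 TPM in NLS and 245, 231 and 240 TPM in Cyto (-0.71, SE 0.17, adjusted p = 0.00464). Rh5 was higher, at 109, 124 and 88.8 TPM in NLS and 89.1, 59.3 and 68.2 TPM in Cyto, with an overlap of 1 library (0.57, SE 0.16, adjusted p = 0.0136). Both strains were far above w1118 for Rh5, which read 10.0 to 12.1 TPM there. Cpr72Ec, a cuticle protein gene expressed in the eye lens, was higher in NLS (1.03, SE 0.14, adjusted p = 2.50e-06).

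Single genes with no list in common had some of the smallest adjusted p values. su(w[a]), a splicing regulator on the X chromosome that was identified as a suppressor of an allele of w, read 48.4, 54.2 and 50.2 TPM in NLS, 19.0, 21.8 and 16.7 TPM in Cyto and 53.4 to 55.5 TPM in w1118. The Cyto libraries alone were low (1.37, SE 0.12, adjusted p = 2.22e-11), and the difference was 1.52 at 25 °C and 1.43 at 18 °C. CG45080, a gene with no role given here, read 422, 349 and 494 TPM in NLS, 55.3, 64.3 and 74.9 TPM in Cyto and 832 to 858 TPM in w1118 (2.68, SE 0.23, adjusted p = 1.90e-11). CG32640 read 7.67, 29.7 and 26.5 TPM in NLS, 3.13, 0 and 0 TPM in Cyto and 37.2 to 44.3 TPM in w1118 (3.60, SE 0.82, adjusted p = 0.00278), a rise below those of DptA, edin and DptB and above that of Def. CG14957 read 27.0, 23.3 and 22.6 TPM in NLS and 3.64, 1.52 and 2.27 TPM in Cyto (2.90, SE 0.31, adjusted p = 5.02e-09), and CG43134 was lower at 31.8, 28.1 and 32.4 TPM against 134, 142 and 146 TPM (-2.16, SE 0.35, adjusted p = 3.48e-05). None of these genes overlapped between the strains.

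Genes of the Y chromosome, which in flies carries genes for sperm function, were called more often than those of other chromosomes. On the Y, 10 of 18 tested genes (55.6%) were called, against 10.6% on 2L, 9.08% on 2R, 18.0% on 3L, 14.3% on 3R, 17.7% on the fourth chromosome and 14.7% on the X. Pp1-Y1, a Y-linked protein phosphatase gene (Y:9833-10786, BDGP6), was listed at 0 in all 3 NLS and all 3 w1118 libraries at 29 °C and read 5.44, 4.80 and 4.78 TPM in Cyto. CG45766 (Y:3301827-3302701), with no role given here, was likewise listed at 0 in NLS and w1118 and read 25.2, 33.5 and 36.2 TPM in Cyto. Both genes separated the strains in the same way at the other temperatures: Pp1-Y1 was at 0 in all NLS libraries and 3.68 to 7.34 TPM in Cyto, and CG45766 was at most 0.201 TPM in NLS and 13.8 to 24.1 TPM in Cyto. The axonemal dynein gene kl-3 was lower in NLS at 1.13, 1.25 and 1.05 TPM against 1.79, 2.23 and 2.20 TPM (-0.52, SE 0.09, adjusted p = 0.000180), and CG45765 was the 1 Y gene that was higher (0.50, SE 0.10, adjusted p = 0.000854). In a list of 11 Y-linked genes 5 were lower (45.5%, against 9.38%). That count was 2 without NLS replicate 1 or 3 or Cyto replicate 2 or 3, 2 with the 6 libraries alone, and 3 under either scaling. Pp1-Y1 and CG45766 kept their call in all 14 alternatives. Y-linked sequences often have near copies, so reads at this chromosome may be assigned with more error. The labels do not say whether the strains carry the same Y chromosome, so a difference between Y chromosomes and one in expression from the Y cannot be told apart in these counts.

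**Figure D4:**
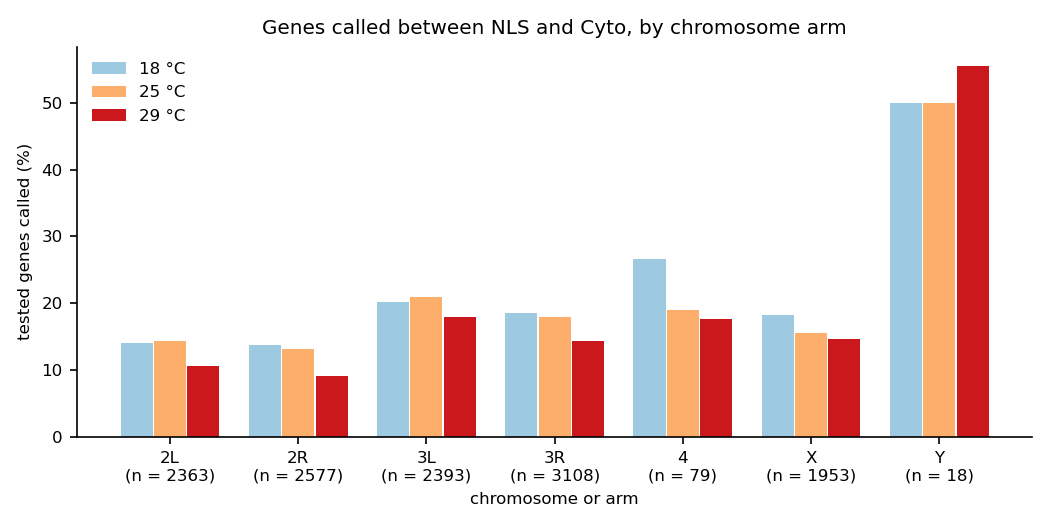
Percent of tested genes called between NLS and Cyto by chromosome arm, at 18 °C, 25 °C and 29 °C, with the number of genes tested under each arm. The Y chromosome, with 18 genes, reaches 50%, 50% and 55.6%, and the bars on 3L are above those on 2L and 2R at each temperature.

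The same strains were compared at 25 °C and 18 °C in libraries that share none with the 29 °C comparison. At 25 °C 2077 genes (16.5%) were called, 605 higher in NLS (4.82%) and 1472 lower (11.7%), and at 18 °C 2139 (17.0%), 1295 higher (10.3%) and 844 lower (6.72%). Of the 501 genes higher at 29 °C, 437 had the same sign at 25 °C (87.2%, against 35.3% of all genes), and 391 had it at 18 °C (78.0%, against 48.5%). Of the 1178 lower genes, 1097 had the same sign at 25 °C (93.1%, against 64.7%) and 851 at 18 °C (72.2%, against 51.5%). Called in the same direction at all 3 temperatures were 147 higher genes and 186 lower genes, among them su(w[a]), Obp99d, LysE, Acp76A, HIP, Cyp6d5, Nup54, Lsp1alpha, Pp1-Y1 and CG45766.

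The difference itself was tested between temperatures. It passed for 27 genes between 29 °C and 25 °C (0.215%), 17 more positive at 29 °C (0.135%) and 10 more negative (0.0796%). Yp1 was among them: its difference was -2.68 at 29 °C, -0.74 at 25 °C and 0.03 at 18 °C, and the change from 25 °C was -1.93 (adjusted p = 0.00505). NijC, a ninjurin of the cell surface, went from 0.29 at 25 °C to 1.02 (change 0.73, adjusted p = 0.0138). Tim17a2, a mitochondrial import subunit, went from -0.06 to 1.00 (change 1.06, adjusted p = 0.00542), hid from 0.02 to -0.45 and Cyp6a8 from 0.15 to -0.94. CG7017, with no role given here, went from -0.15 to 2.70, with 6.44, 12.6 and 7.04 TPM in the NLS libraries at 29 °C and 1.35, 0.0515 and 0.205 TPM in Cyto.

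Between 29 °C and 18 °C the difference passed for 1232 genes (9.81%), 263 more positive at 29 °C (2.09%) and 969 more negative (7.72%), a split that became 551 and 547 with median-ratio factors. Of these, 46 were called in opposite directions at 29 °C and 18 °C. Nplp3, which encodes a neuropeptide-like precursor, was higher in NLS at 18 °C (0.54) and lower at 29 °C (-0.37), and the centrosomal gene Plp went from 0.26 to -0.28. For edin, the difference was 5.12 larger at 29 °C than at 18 °C (adjusted p = 0.0156). Of the 17 listed antimicrobial peptide genes, 0 passed this limma test or that against 25 °C. At an unadjusted p below 0.05 there were 9 (2 against 25 °C), all more positive at 29 °C. Over all 12555 genes those counts were 3047 and 1239. At the adjusted threshold the peptide genes' difference at 29 °C (6 higher, 2 lower) is not shown to differ from that at 25 °C (1 higher, 1 lower) or 18 °C (2 lower). Of the 59 seminal fluid genes, 34 were higher at 25 °C (against 4.82% of all genes). At 18 °C 34 were higher (against 10.3%) and 3 lower (against 6.72%). The difference between 29 °C and 18 °C passed for 6 of the 59 seminal fluid genes (against 9.81% of all genes).

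**Figure D5:**
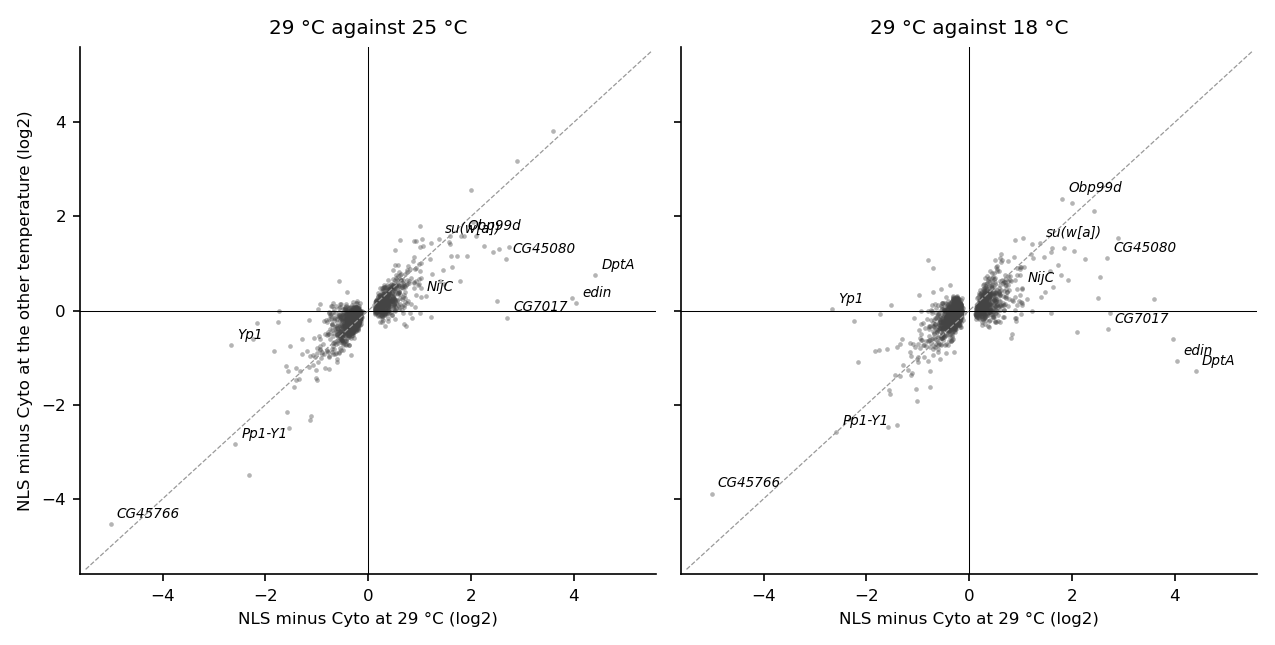
Difference NLS minus Cyto (log2) at 29 °C on the horizontal axis against that at 25 °C (left) and 18 °C (right), for the 1679 genes called at 29 °C, with 1 point per gene and a dashed line of equal values. Pp1-Y1 and su(w[a]) lie near the line in both panels, CG45766 is at -4.54 at 25 °C and -3.89 at 18 °C against -5.01 at 29 °C, and DptA, edin, CG7017 and Yp1 lie nearer the horizontal axis.

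Both strains differed from w1118 at many more genes than from each other. At 29 °C, NLS against w1118 called 7205 genes (57.4%), 3198 higher (25.5%) and 4007 lower (31.9%), and Cyto against w1118 called 7521 (59.9%), 3910 higher (31.1%) and 3611 lower (28.8%); these comparisons share the w1118 libraries. Of the 501 genes higher in NLS than in Cyto, w1118 was nearer the NLS mean for 227 (45.3%) and nearer the Cyto mean for 274. Of the 1178 lower genes it was nearer NLS for 539 (45.8%) and nearer Cyto for 639. The immune genes show this mixture: for edin Cyto matched w1118, for AttD and CecA1 NLS did, and for Drsl4 and LysD both strains were below w1118.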

How the data were processed

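RNA was extracted from whole flies with TRIzol and libraries were made with an Illumina TruSeq RNA kit, per the labels' protocols. The authors deposited 1 table of TPM, a length-normalized abundance scaled to 1 total, per gene and library. BDGP6 and dm6 are the builds in the submitters' processing notes, and the labels name no aligner or counter (not given in the sources used here). Depth is unknown, since TPM keeps none. Symbols were matched to the BDGP6 annotation for positions, 12783 by gene name and 1087 by a synonym, with 56 unmatched.

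Genes that reached 1 TPM in 3 or more of the 54 libraries were tested as log2(TPM + 1) with limma 3.58.1 (moderated test with trend, two-sided, R 4.3.3), 1 mean for each of 18 groups of 3 and 36 residual degrees of freedom, and adjusted by Benjamini-Hochberg over 12555 genes. The pseudocount makes fold changes of low genes too small. The code was tested on simulated data. Genes were named by rule: the largest called changes without overlap, up to 4 per list with the smallest p, and the strongest differences between temperatures. Others were chosen after their values were seen (CecA1, CecC, AttA, AttB, AttC, Dro, Mtk, Drs, Yp3, the Vm genes, Acp54A1, apolpp, Hsp22, PPO1 and CG45765). The comparison and the gene lists were chosen with earlier results of these data known, and lists are described by counts, with no set test. Nothing says that replicates came from separate cultures, so p-values measure the spread between these samples, which may be technical. Alternatives changed the pseudocount, filter, scaling, replicate term, libraries fitted and each library in turn. Replicates with the same number correlated at 0.18, 0.11 and -0.06 in their deviations at 29 °C, so numbers were not treated as pairs.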

Additional observations from a re-analysis of the deposited data

Results flagged for a closer look

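For 35 of the genes examined, the difference between NLS and Cyto itself differed between 29 °C and 18 °C, and for 9 it differed between 29 °C and 25 °C (limma interaction, adjusted p below 0.05 over all genes). Some of these genes were examined because they had the smallest p in these same tests, so they were bound to pass. The counts therefore do not measure how common such changes are. Over all genes tested, 9.81% passed against 18 °C and 0.215% against 25 °C. Values here are the change in the log2 difference, 29 °C minus the lower temperature.

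Against 18 °C, secreted and storage products moved both ways. The change was 5.12 for edin, -2.70 for Yp1, -2.02 for Yp2, -0.45 for Apoltp, 1.33 for Acp54A1, 0.55 for Sfp93F, 0.50 for Sfp24Bd and -0.54 for LysP. Among protein quality genes it was 0.35 for Prosalpha6, 0.25 for Prosalpha4, 0.33 for Prosbeta4, 0.30 for Prosalpha5, 0.25 for Der-1 and -0.24 for Hsc70-1. Metabolic and detoxification genes gave -0.37 for Nc73EF, -0.92 for Cyp6a8, 0.56 for Cyp4d8, 0.64 for Cyp6d2, -1.63 for MtnB, 0.55 for the peroxisome gene Pex10 and 0.66 for Tim17a2. Nuclear, apoptotic and cell surface genes gave 0.19 for Ran, -0.58 for hid, 0.55 for NijC and 0.30 for the tetraspanin gene Tsp42Ef. The remaining named genes were Cpr72Ec (0.87), Rh4 (-0.44), Nplp3 (-0.91), tyn (-0.77), Plp (-0.54) and plh (-0.92). Genes with no role given here were CG45766 (-1.12), CG14957 (1.35), CG7017 (3.10) and CG45080 (1.56).

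Against 25 °C, the change was -1.93 for Yp1, -0.47 for hid, -1.09 for Cyp6a8, 0.73 for NijC, 2.85 for CG7017, 1.59 for CG45080, 1.06 for Tim17a2, -0.67 for cDIP and 0.38 for Tsp42Ef. Both measures of Yp1 include Cyto replicate 1 at 29 °C, the library with the vitelline membrane transcripts.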

How the results depend on the processing

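The count of 1679 genes at 29 °C was 680 to 2375 when 1 library was left out (275 to 542 higher and 405 to 1859 lower), and 438 when the 6 libraries were fitted alone (223 higher, 215 lower). Quantile normalization gave 766 lower at 29 °C and 894 at 25 °C, and median-ratio factors gave 887 higher and 501 lower at 29 °C and 921 lower at 25 °C. At 25 °C, leaving out 1 library gave 1252 to 1779 genes (416 to 507 higher, 827 to 1272 lower), and at 18 °C 1529 to 1636 (906 to 990 higher, 585 to 686 lower). The test between 29 °C and 18 °C gave 400 to 1749 genes with 1 library left out (137 to 309 more positive, 263 to 1440 more negative), 551 and 547 with median-ratio factors, and 627 (166 and 461) with its 12 libraries alone. The test between 29 °C and 25 °C gave 16 to 39 genes with 1 library left out (8 to 21 and 6 to 21), 16 more negative after quantile normalization, and 16 genes (7 more positive) with the NLS and Cyto strains alone. With those strains alone, 9 of the genes were among the 27 of the main fit. The cause was not tested.

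With the replicate number as a block, 1658 genes were called at 29 °C, sharing 96.5% of the main calls, and of the genes named CecA2 lost its call (adjusted p = 0.0520). Same-numbered libraries share only a number here. Of 103 genes examined and called at 29 °C, 48 kept the call under every alternative run, 55 lost it under at least 1, and 0 changed sign. Depth is unknown, so genes at a few TPM or less, such as Yp1 and Hsp70Ba, are the least certain.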

Other observations

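Neighbouring genes with opposite differences, chosen after their values were seen, were found at a pair of places. On 3R, CG12224 (3R:11980704-11982062, BDGP6) read 39.4, 30.7 and 29.2 TPM in NLS and 7.92, 6.27 and 7.67 TPM in Cyto (2.03, SE 0.18, adjusted p = 6.08e-11). The next gene, CG3397 (3R:11983098-11984541), read 6.09, 3.35 and 3.38 TPM in NLS and 17.0, 9.61 and 17.9 TPM in Cyto (-1.58, SE 0.30, adjusted p = 0.000296), and w1118 was near 0 for it. On 3L, CG14957 (3L:3187563-3188106) was higher in NLS by 2.90, while CG32284 (3L:3186664-3187245) was lower by the fit (-1.28, SE 0.25, adjusted p = 0.000553). The first pair kept its opposite signs at 25 °C (1.88 and -2.15) and at 18 °C (1.27 and -2.47).

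Some transcripts of female tissue were also uneven among these male libraries. Cp15, a chorion protein gene, read 2.66, 2.00 and 4.71 TPM in NLS, 0.473, 0 and 0.155 TPM in Cyto and 7.48 to 8.89 TPM in w1118 (1.73, SE 0.31, adjusted p = 0.000143). It did not follow the vitelline membrane genes, which were seen in Cyto replicate 1.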
